A study of Mus musculus with 18 samples.

Results

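The genes described here are 10 members of the transforming growth factor beta (TGF-beta) family and its immediate circuit: the ligands Tgfb1, Tgfb2 and Tgfb3, the bone morphogenetic protein Bmp4, the activin subunit gene Inhba, the ligand-binding protein gene Ltbp1, the receptors Tgfbr1 and Tgfbr2, the inhibitory Smad gene Smad7 and the induced matrix gene Tgfbi. They were taken by symbol from a table of 30854 genes, and all 10 were found there and could be tied to their array probes. The study grew GL261, a mouse glioma cell line, in the brains of immunocompetent WT C57BL/6 mice and of Pfp/Rag2 -/- mice, which lack perforin and the recombinase needed for mature T and B cells. Tumours were taken at day 7, at day 14 or when the mice became symptomatic, with 2 arrays for each host at day 7 and at day 14 and 3 for each host at the symptomatic stage. Healthy brain (2 arrays) and cultured GL261 cells (2 arrays) complete the 18 arrays. The labels give C57BL/6 as the strain and no age. Each tumour array holds RNA pooled from 2 or 3 mice, drawn from 4 mice of a host type at day 7 or 14 and 6 at the symptomatic stage, so the tests measure the spread between pools and not between single mice.

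TGF-beta ligands are secreted as latent complexes, in which a latent TGF-beta binding protein such as LTBP1 ties the ligand to the matrix until integrins or proteases free it. The free ligand binds TGFBR2, which recruits and phosphorylates TGFBR1, and the pair passes the signal to Smad2 and Smad3; activins and bone morphogenetic proteins use related receptors and, for the latter, Smad1, Smad5 and Smad8. In gliomas the ligands are best known for suppressing T and natural killer cells and for promoting invasion, and TGFBI is a secreted matrix protein named for its induction by TGF-beta.

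The promoters of Tgfb1, Tgfbi and Tgfb2 are shown because, over the 18 arrays, Tgfb1 and Tgfbi were the most alike pair of members (Pearson r = 0.92, as a description of arrays that share groups) and Tgfb2 ran against both (r = -0.72 and -0.77). The sequences are RefSeq's on GRCm38.p6 and run 5′ to 3′ on each gene's strand, from 250 bases before an annotated start to 50 after it. The Tgfb2 window lies inside the span of its gene (186622787 to 186709697), so its start is not the gene's outermost. Capitals mark any match, on either strand, to TATAAA (the TATA box), CAGAC (a Smad-binding core), GGGCGG (the GC box bound by Sp1) or TTCNNNGAA (a STAT-binding pattern). The table of promoters held 8 of the 10 genes, and Tgfb3 and Smad7 were not matched.
Tgfb1, chr7:25686752-25687051, plus strand: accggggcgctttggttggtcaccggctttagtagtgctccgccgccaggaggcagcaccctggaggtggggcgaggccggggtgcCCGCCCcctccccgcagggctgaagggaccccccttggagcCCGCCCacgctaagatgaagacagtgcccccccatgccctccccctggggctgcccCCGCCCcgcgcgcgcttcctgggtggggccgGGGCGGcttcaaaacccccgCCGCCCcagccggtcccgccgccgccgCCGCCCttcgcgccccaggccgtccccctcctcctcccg
Tgfb2, chr1:186705940-186706239, minus strand: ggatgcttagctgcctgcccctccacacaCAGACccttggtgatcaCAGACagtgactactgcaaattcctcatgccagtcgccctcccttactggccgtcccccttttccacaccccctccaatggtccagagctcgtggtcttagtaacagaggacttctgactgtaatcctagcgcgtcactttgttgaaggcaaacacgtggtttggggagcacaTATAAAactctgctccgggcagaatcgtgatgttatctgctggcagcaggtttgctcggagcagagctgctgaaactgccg
Tgfbi, chr13:56609336-56609635, plus strand: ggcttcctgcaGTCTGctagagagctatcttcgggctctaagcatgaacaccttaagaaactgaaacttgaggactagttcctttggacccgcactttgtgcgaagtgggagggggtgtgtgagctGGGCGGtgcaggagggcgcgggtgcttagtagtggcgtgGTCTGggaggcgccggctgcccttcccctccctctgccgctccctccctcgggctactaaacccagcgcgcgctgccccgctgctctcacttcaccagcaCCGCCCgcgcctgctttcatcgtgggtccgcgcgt
The Tgfb1 window held 6 GC boxes and none of the other patterns. The Tgfb2 window held a TATA box beginning 31 bases before the start, 2 Smad cores and no GC box. The Tgfbi window held 2 Smad cores and 2 GC boxes and no TATA box. For scale, a TATA box lay in 13.6% of the 32851 promoters of the same length, a GC box in 35.7%, a Smad core in 49.6% and the STAT pattern in 8.3%. The STAT pattern was found in none of the 8 genes' promoters. A match is a run of letters and not a shown binding site.

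Signals below are background-corrected, normalized probe intensities on a log2 scale, so a difference of 1 is a doubling, and levels of different genes are not compared because each probe has its own brightness. A probe counts as detected on an array when its detection p is under 0.01 against the negative controls. A gene counts as changed when limma's adjusted p, over all 14528 genes tested in that comparison, is under 0.05. Smad7, the inhibitory Smad that TGF-beta signalling induces, was detected on none of the 18 arrays, with signals of 4.43 to 4.70, and is not described further. The remaining 9 genes were tested. Ltbp1 rests on the 1 detected probe of its 7, Bmp4 on 1 of 2, and Tgfbr1 and Tgfbr2 on the brightest of 4, which was detected on all 18 arrays. The dimmest probe of each receptor was detected on 0 arrays. Means over all probes of these genes therefore take in background signal, which shrinks differences.

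Across all arrays the median raw signal was 67.2 to 134 units against 58.2 to 109 for negative controls, and 32.3% to 39.8% of probes were detected. Replicates of a group correlated at 0.966 to 0.996 over genes. Of 2 probes for the perforin gene Prf1, the brighter was detected on all 18 arrays, cultured cells included. The dimmer read 4.93 to 5.82 in WT tumours and 4.65 to 5.08 in Pfp/Rag2 -/- tumours, with the WT arrays above the others at each stage, as the labels have it, though it was detected on 1 array alone (WT day 14). A Rag2 probe was detected on none, and where these probes lie relative to the deleted parts was not analysed here. Brain arrays carried all 6 tested neuron markers, and in tumours the summed neuron signal lay between 3.41% and 45.6% of that in brain, highest at day 7. The dissected pieces also differed in choroid plexus: the summed signal of its 8 markers was 66.1% and 111% of brain in the day 7 pools from Pfp/Rag2 -/- hosts, 9.33% and 27.1% in those from WT hosts, and 0.65% to 37.7% at the later stages. In such bulk samples, fewer cells of a type and less RNA per cell cannot be told apart.

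Tgfbi showed the widest range among the 9 genes and was higher in WT hosts at each stage, past the threshold at the later 2. Its brighter probe read 10.87 and 11.64 in WT hosts on day 7, 12.33 and 12.46 on day 14, and 11.39, 12.03 and 12.28 in symptomatic mice. In Pfp/Rag2 -/- hosts it read 9.48 and 10.71 on day 7, 10.02 and 10.90 on day 14, and 9.88, 10.20 and 10.71 in symptomatic mice. Within each stage the lowest WT array exceeded the highest Pfp/Rag2 -/- array, and all tumours lay far above brain (7.73 and 7.90) and cultured cells (7.31 and 7.40). The WT level was 3.82-fold higher at day 14 (log2 difference 1.93, SE 0.42, limma adjusted p = 0.0088) and 3.11-fold higher at the symptomatic stage (1.64, SE 0.35, adjusted p = 0.0055). At day 7 it was 2.24-fold higher, with wide spread between the pools of each host, and did not pass (1.16, SE 0.42, adjusted p = 0.19), although it passed without the second Pfp/Rag2 -/- pool (1.78, adjusted p = 0.029). Without the first Pfp/Rag2 -/- pool the day 14 value was 1.5 (adjusted p = 0.062), which ends that call. The second Tgfbi probe, detected on the 14 tumour arrays alone, gave 2.42 at day 14 (SE 0.49, adjusted p = 0.0057) and 1.88 at the symptomatic stage (SE 0.40, adjusted p = 0.0063).

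Tgfb1, the ligand most associated with immune cells, moved in parallel with smaller steps. It read 6.64 and 6.55 in WT hosts at day 7 against 5.83 and 6.37 in Pfp/Rag2 -/- hosts, 7.20 and 7.18 against 6.42 and 6.40 on day 14, and 6.72, 6.80 and 7.42 against 6.54, 6.56 and 6.70 in symptomatic mice. The hosts did not overlap at any stage (as held for 39.8%, 47.9% and 38.8% of all genes at the 3 stages taken singly), yet no single stage passed: the differences were 0.49 (SE 0.27, adjusted p = 0.45), 0.78 (SE 0.27, adjusted p = 0.078) and 0.38 (SE 0.22, adjusted p = 0.29). The day 14 difference did pass after cyclic loess normalization (0.98, adjusted p = 0.018), with the authors' processed values (0.58, adjusted p = 0.040) and, at the threshold, without background correction (0.47, adjusted p = 0.050). Tgfb1 was not detected on either brain array (5.51 and 5.11) or either array of cultured cells (5.06 and 5.88), while it was detected in all 14 tumour pools. Averaging the host difference over the 3 stages, a contrast added after the values were seen, gave 0.55 for Tgfb1 (SE 0.15, adjusted p = 0.020) and 1.58 for Tgfbi (SE 0.23, adjusted p = 0.00028). Tgfb1 ranged from an adjusted p of 0.012 to 0.060 as each tumour array was left out, and Tgfbi from 9.5e-05 to 0.0015. By that contrast 19.6% of all genes changed (9.26% higher and 10.4% lower in WT hosts). Every WT array lay above every Pfp/Rag2 -/- array at all 3 stages for 4.63% of all genes, as for these 2 members. The averaged contrast also called Tgfb2 and Tgfb3 as lower and Bmp4 as higher (0.49, SE 0.15, adjusted p = 0.036). The Bmp4 host difference, however, had opposite signs at day 7 and day 14 (-1.04 and 1.93).

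Macrophage and monocyte markers differed between hosts in the same direction as both genes, but did not follow Tgfb1 over the stages. Of the 11 on the list 8 were tested, and 2, 7 and 7 of them were higher in WT hosts at the 3 successive stages, with none lower. Their summed signal was 7549 to 7837 in WT hosts on day 7, 11109 to 11947 on day 14 and 6948 to 8090 in symptomatic mice. In Pfp/Rag2 -/- hosts it was 2427 to 4870, 2372 to 2570 and 1909 to 2240, and it was 512 to 584 in brain and 145 to 163 in cultured cells, where at most 1 marker was detected. The mean Tgfb1 signal in Pfp/Rag2 -/- hosts was 6.1, 6.41 and 6.6 at these stages, without a called change. Of 6 tested T cell markers, 5, 4 and 4 were higher in WT hosts at the 3 stages, and of 8 microglia markers 0, 2 and 2. The part of these cells in the Tgfb1 and Tgfbi differences was not tested. Over the 18 arrays the genes most like Tgfbi were H2-Ab1 (Pearson r = 0.989) and Cd74 (r = 0.988), both of MHC class II presentation, and LOC641240 (r = 0.987); the arrays share groups and hosts, and the values are descriptive. Those most like Tgfb1 were Arhgap45 and Naip5 (r = 0.932 each) and LOC100044439 (r = 0.927).

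**Figure D1:**
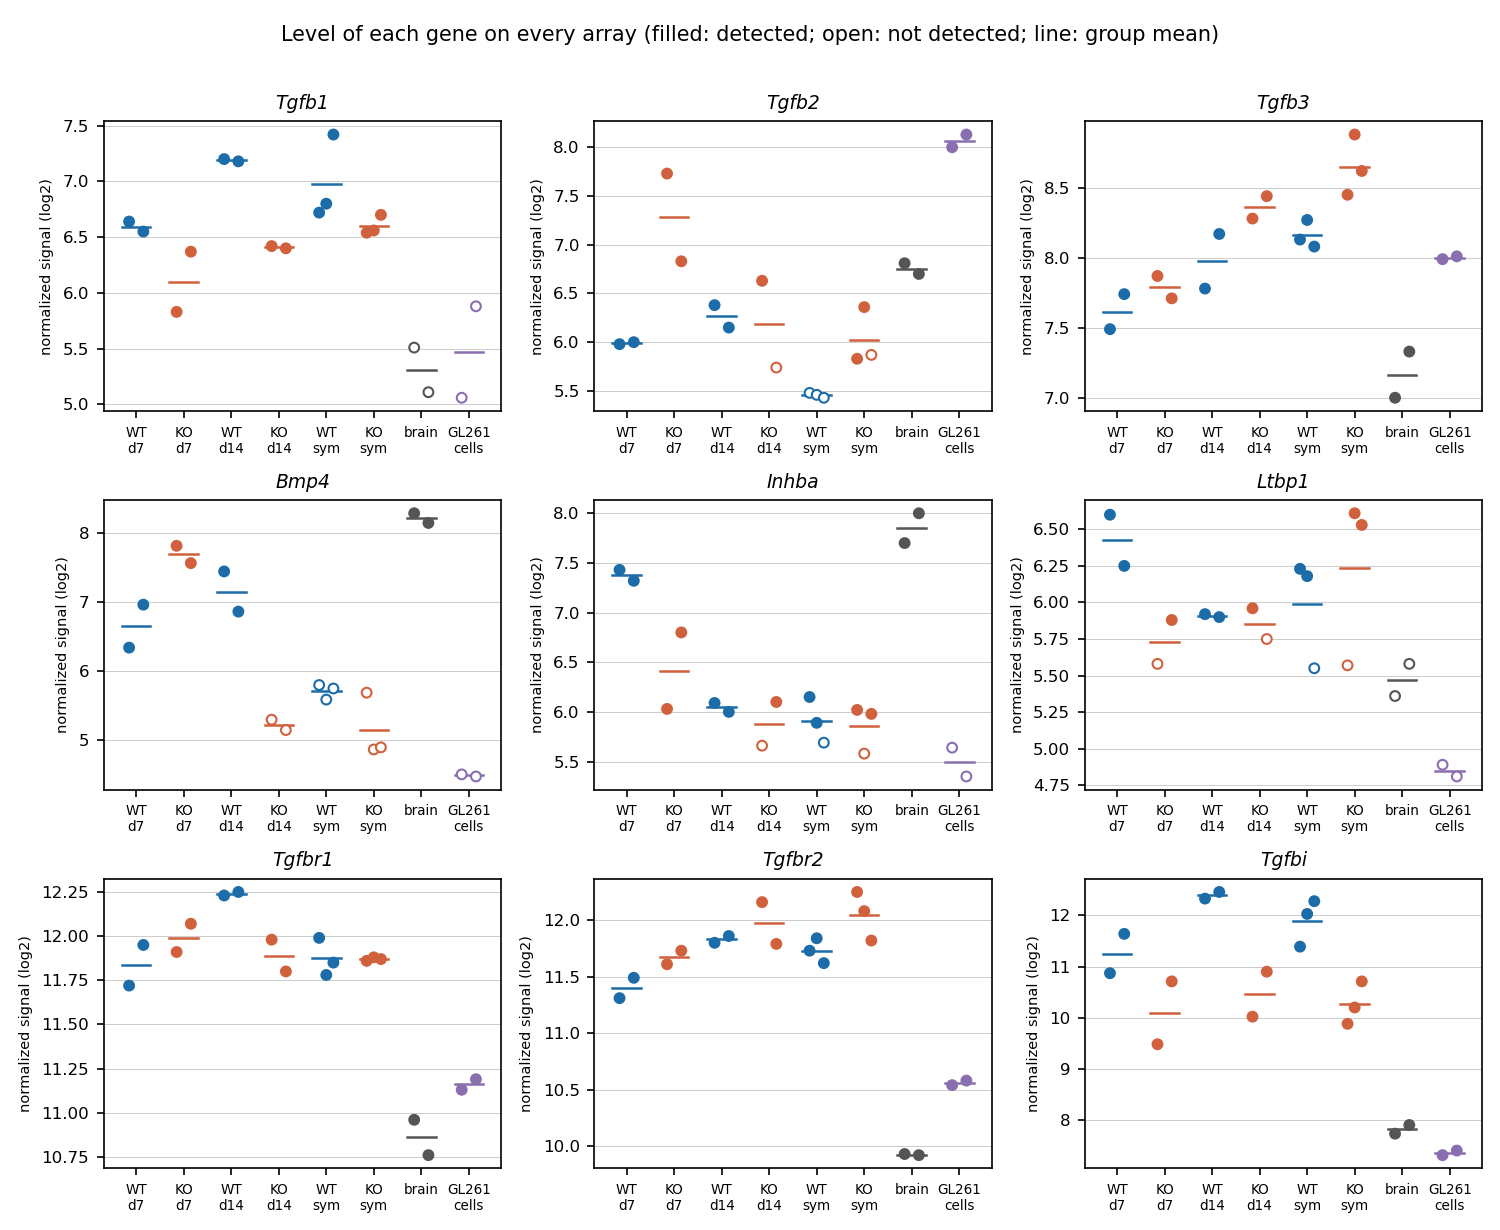
Normalized log2 signal of the 9 measured genes on every array, by group; filled points are detected, open points are not, and lines are group means. WT d7, d14 and sym are WT-host tumours of day 7, of day 14 and of symptomatic mice, and KO marks tumours in Pfp/Rag2 -/- hosts. Tgfbi and Tgfb1 are higher in WT than in KO tumours at each stage, Tgfb2 is highest in cultured cells (8.0 and 8.13), and Bmp4 and Inhba are highest in brain.

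Tgfb2 had a different distribution from Tgfb1. It was highest in cultured GL261 cells (8.0 and 8.13), next in the day 7 pools from Pfp/Rag2 -/- hosts (7.73 and 6.83) and in brain (6.81 and 6.70), and lower in every other tumour pool. In WT hosts it read 5.98 and 6.00 on day 7, 6.38 and 6.15 on day 14, and 5.48, 5.46 and 5.43 in symptomatic mice, where no array detected it. In Pfp/Rag2 -/- hosts it read 6.63 and 5.74 on day 14 and 5.83, 6.36 and 5.87 in symptomatic mice, with 1 array not detected in each. At day 7 WT hosts were lower by 1.29 log2 units (SE 0.29, limma adjusted p = 0.029), the only member called among 9 at that stage, against 3.35% of all genes. That call was lost without the first Pfp/Rag2 -/- pool (log2 difference -0.84, adjusted p = 0.32), without either WT pool (-1.28, adjusted p = 0.18, and -1.30, adjusted p = 0.13), and with no filter on dim probes (adjusted p = 0.053). The first Pfp/Rag2 -/- pool, with the highest Tgfb2 among the tumours, also had the highest choroid plexus signal (111% of brain) and a meningeal fibroblast signal of 160% of brain, and the part of either tissue was not tested. From day 7 to day 14 Tgfb2 fell by 1.10 in Pfp/Rag2 -/- hosts (SE 0.29, adjusted p = 0.015), a call that was likewise lost without that pool (-0.65, adjusted p = 0.18) or without the second day 14 pool (-0.65, adjusted p = 0.18). In WT hosts it was at least 1.27-fold lower at the symptomatic stage, where no array detected it, than on day 14 (measured -0.81, SE 0.27, adjusted p = 0.050), a call just past the threshold that was lost without any single array of the WT day 14 or symptomatic pools (adjusted p = 0.064 to 0.32). The host difference changed from day 7 to day 14 by 1.37 (SE 0.42, adjusted p = 0.095), which did not pass with all arrays but did without the second Pfp/Rag2 -/- day 7 pool or the first day 14 pool (1.82 each, adjusted p = 0.015 and 0.034). Over all 18 arrays the genes most like Tgfb2 were Gstt3 (r = 0.956), Lama5 (r = 0.933) and Scd1 (r = 0.920).

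Tgfb3 was the one TGF-beta ligand detected everywhere. It read 7.49 and 7.74 in WT hosts on day 7, 7.78 and 8.17 on day 14, and 8.13, 8.27 and 8.08 in symptomatic mice, and 7.87 and 7.71, 8.28 and 8.44, and 8.45, 8.88 and 8.62 in Pfp/Rag2 -/- hosts. Brain read 7.00 and 7.33 and cultured cells 7.99 and 8.01. In Pfp/Rag2 -/- hosts it rose by 0.56 from day 7 to day 14 (SE 0.18, adjusted p = 0.027), a rise that was 0.31 and no longer called after cyclic loess normalization (adjusted p = 0.15) and that was lost without either day 7 pool (adjusted p = 0.091 and 0.094) or without the second day 14 pool (0.18). The rise of 0.36 in WT hosts did not pass (SE 0.18, adjusted p = 0.21). At the symptomatic stage WT hosts were lower by 0.49 (SE 0.14, adjusted p = 0.033), with every WT array below every Pfp/Rag2 -/- array. That call was lost without WT pool 1 or 3 (adjusted p = 0.073 and 0.11) or without Pfp/Rag2 -/- pool 2 or 3 (0.14 and 0.073). Averaged over stages, the host difference was -0.35 for Tgfb3 (SE 0.10, adjusted p = 0.021) and -0.59 for Tgfb2 (SE 0.16, adjusted p = 0.019). Both had the opposite sign to Tgfb1, and both calls were lost on leaving out some single arrays. By stage Tgfb2 gave -1.29, 0.08 and -0.56, and only the first was called. At the symptomatic stage no WT array detected Tgfb2. The genes most like Tgfb3 over all arrays were BC031781, Bbc3 and Pskh1 (r = 0.964, 0.960 and 0.959).

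Bmp4, a ligand that signals through Smad1, Smad5 and Smad8, had the clearest change of host difference with time. Brain read 8.28 and 8.14. Tumours in Pfp/Rag2 -/- hosts went from 7.81 and 7.56 on day 7 to 5.30 and 5.15 on day 14 and 5.69, 4.87 and 4.90 in symptomatic mice, with no detected array after day 7. Tumours in WT hosts held 6.34 and 6.96 at day 7 and 7.44 and 6.86 at day 14 before falling to 5.80, 5.59 and 5.75, again not detected. Cultured cells did not detect it (4.51 and 4.48). At day 14 the WT level was at least 2.40-fold higher (measured log2 difference 1.93, SE 0.27, adjusted p = 0.00042); the bound sets the pools below background at the lowest detectable signal. At day 7 the sign was opposite without passing (-1.04, SE 0.27, adjusted p = 0.059). The host difference therefore changed by 2.97 between day 7 and day 14 (SE 0.39, adjusted p = 0.0043), 1 of 9 members against 2.42% of all genes (1.6% higher, 0.826% lower). The fall in Pfp/Rag2 -/- hosts from day 7 to 14 was at least 3.47-fold (measured -2.46, SE 0.27, adjusted p = 0.0013) and that in WT hosts from day 14 to the symptomatic stage at least 2.35-fold (measured -1.43, SE 0.25, adjusted p = 0.0040). The latter was lost without the first WT day 14 pool (-1.14, adjusted p = 0.071). Markers of other brain tissue fell in some of the same steps as Bmp4 and not in others, and their sums are given as a description. The summed choroid plexus signal in Pfp/Rag2 -/- hosts went from 42230 and 25086 at day 7 to 627 and 340 at day 14 and 247 to 14301 in symptomatic mice, and all 8 of its markers fell from day 7 to 14. In WT hosts it was 3542 and 10291, then 2301 and 12767, then 268 to 10066. The WT day 14 pools with sums of 2301 and 12767 read 7.44 and 6.86 for Bmp4. The summed oligodendrocyte signal (5 tested markers) was 35257 and 33624 in Pfp/Rag2 -/- hosts at day 7, 15955 and 11222 at day 14 and 17157 to 17590 later. In WT hosts it was 36543 and 39605 at day 7, 38036 and 17186 at day 14 and 9484 to 12283 later. Beside these WT day 14 sums Bmp4 read 7.44 and 6.86. Cultured GL261 cells also gave 13820 and 13998, with 3 of the 5 markers detected. Like sums therefore need not mean like oligodendrocyte content. Of the 5 oligodendrocyte markers 3 were higher in WT hosts at day 14, all 5 fell in Pfp/Rag2 -/- hosts from day 7 to 14, and 4 fell in WT hosts after day 14. In the same steps 6 and 5 of 7 astrocyte markers and 5 and 2 of 6 neuron markers fell. The part of these tissues in the Bmp4 differences was not tested. Among the genes most like Bmp4 were Mdk (r = 0.962) and Ssh3 (r = 0.961).

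**Figure D2:**
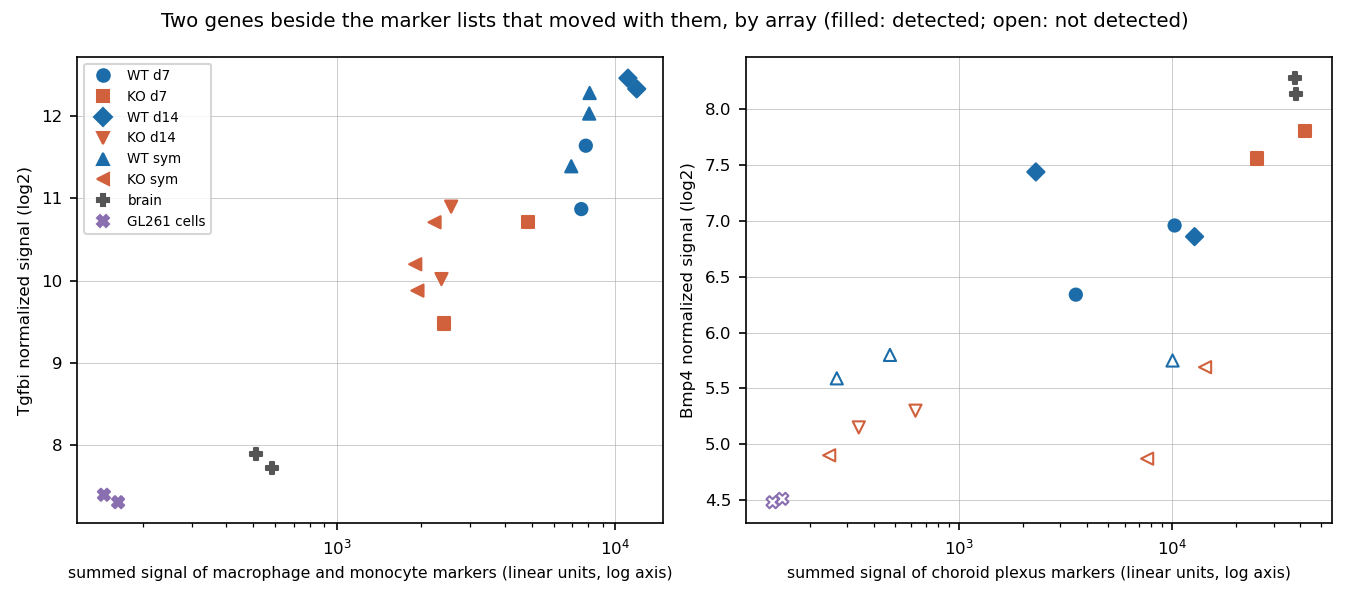
Each point is 1 array; the left plot sets Tgfbi against the summed linear signal of the tested macrophage and monocyte markers and the right plot sets Bmp4 against that of the choroid plexus markers, with filled points detected and open points not. Tgfbi and the macrophage sum are both lowest in cultured cells and highest in WT tumours. Bmp4 is highest in brain, and the choroid plexus sums of the symptomatic pools run from 247 to 14301, with Bmp4 detected on none of them.

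Inhba, whose product forms activin A, was highest in brain (7.70 and 8.0) and not detected in cultured cells (5.64 and 5.35). In WT hosts it read 7.43 and 7.32 on day 7, 6.09 and 6.00 on day 14 and 6.15, 5.89 and 5.69 in symptomatic mice. In Pfp/Rag2 -/- hosts it read 6.03 and 6.80, 5.66 and 6.10, and 6.02, 5.58 and 5.98. The day 7 WT pools were the highest tumour pools, and the WT level fell by 1.33 to day 14 (SE 0.25, adjusted p = 0.0086); this call was lost without the first day 7 pool or the second day 14 pool (adjusted p = 0.087 and 0.084). The day 7 host difference of 0.96 just missed (SE 0.25, adjusted p = 0.054), and it passed without the second Pfp/Rag2 -/- pool (1.35, adjusted p = 0.0059), after cyclic loess normalization (0.98, adjusted p = 0.031) and with the processed values (0.60, adjusted p = 0.042). The gene most like Inhba was Gpx6 (r = 0.965). Ltbp1, the carrier of latent TGF-beta, stayed near background. Its detected probe read 6.60 and 6.25 in WT and 5.58 and 5.88 in Pfp/Rag2 -/- hosts at day 7, from 5.55 to 6.61 in the later tumours, 5.36 and 5.58 in brain and 4.89 and 4.81 in cultured cells, with neither reference detected. No host or stage difference passed for Ltbp1.

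The receptors were the most uniform members within tumours. The brightest Tgfbr1 probe read 11.72 to 12.25 over the 14 tumour pools, against 10.96 and 10.76 in brain and 11.13 and 11.19 in cultured cells. The brightest Tgfbr2 probe read 11.31 to 12.25 in tumours, 9.93 and 9.92 in brain, and 10.54 and 10.58 in cultured cells. No tumour pool overlapped either reference for either receptor. Tgfbr1 in WT hosts was 12.23 and 12.25 at day 14, above the 11.98 and 11.80 of Pfp/Rag2 -/- hosts. The difference did not pass (0.35, SE 0.12, adjusted p = 0.079). It did after cyclic loess normalization (0.46, adjusted p = 0.021) and, at the threshold, without background correction (0.35, adjusted p = 0.050). The second Tgfbr1 probe had day 14 means of 6.76 and 6.73. In WT hosts Tgfbr1 was 0.37 lower at the symptomatic stage than at day 14 (SE 0.11, adjusted p = 0.038). That fall was -0.09 (adjusted p = 0.68) over the mean of all 4 probes, and was lost without either day 14 pool (adjusted p = 0.21 and 0.085) or without symptomatic pool 2 or 3 (0.10 and 0.082). Tgfbr2 was 0.15 to 0.32 lower in WT hosts at the 3 stages, none of which passed (adjusted p = 0.10 to 0.57), although the symptomatic one did without Pfp/Rag2 -/- pool 3 (-0.43, adjusted p = 0.045).

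Counted together, few members passed in any host comparison. At day 7, 1 of 9 was called (lower), against 3.35% of all genes (2.31% higher, 1.03% lower). At day 14, 2 of 9 were called, both higher in WT hosts, against 13.6% of all genes (7.06% higher, 6.58% lower). At the symptomatic stage 1 was higher and 1 lower, against 17.1% of all genes (9.23% higher, 7.88% lower). The median difference over the 9 was -0.15, 0.16 and 0.01, beside -0.02, -0.06 and -0.03 over all genes. Between day 14 and the symptomatic stage no member's host difference changed, against 0.0206% of all genes. Between stages, 1 of 9 changed in WT hosts from day 7 to 14, a fall, against 8.73% of all genes (3.93% higher, 4.8% lower). From day 14 on 3 fell in WT hosts, against 19.9% (9.9% higher, 9.98% lower). In Pfp/Rag2 -/- hosts 1 rose and 2 fell from day 7 to 14, against 36% (19.3% higher, 16.8% lower), and none changed from day 14 on, against 0.0275%. These comparisons share arrays, so their counts are not independent. Fitted on the arrays of each comparison alone, which leaves fewer arrays to estimate the spread, no member passed at day 7 or at day 14 (Tgfbi adjusted p = 0.11, Bmp4 0.064) nor in the change of the host difference (Bmp4 0.20), and 1 passed at the symptomatic stage.

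**Figure D3:**
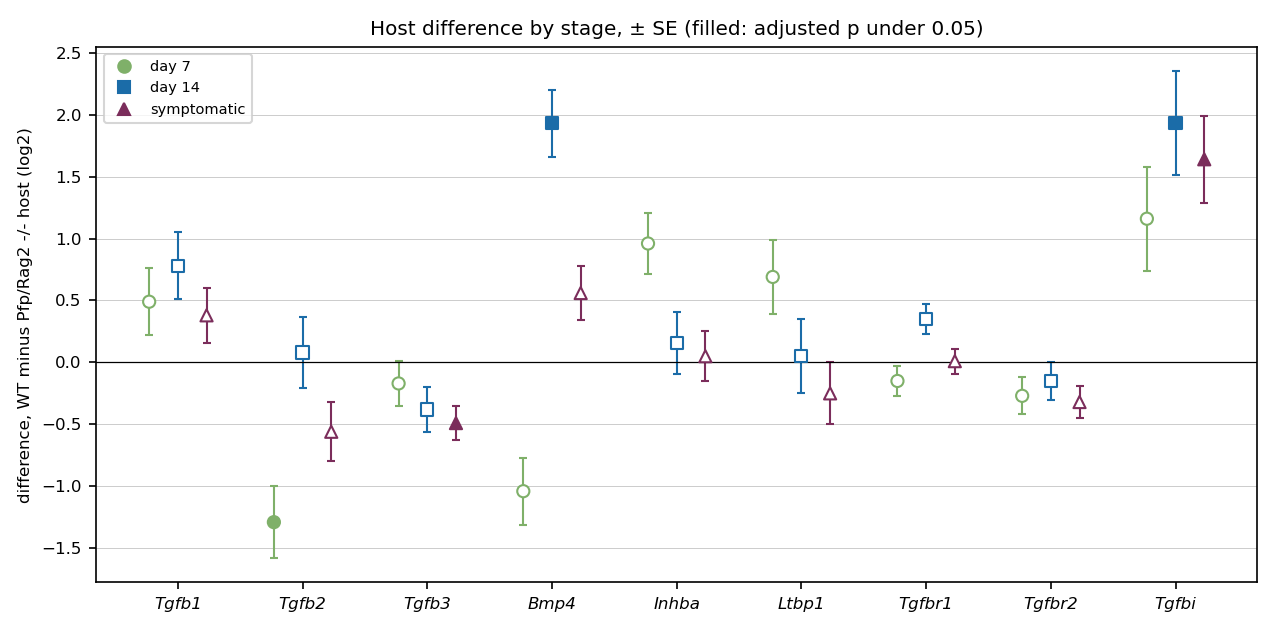
Log2 difference between WT and Pfp/Rag2 -/- hosts, with its standard error from limma, for each gene at day 7 (circles), day 14 (squares) and the symptomatic stage (triangles); filled symbols have an adjusted p under 0.05. Tgfbi and Tgfb1 lie above 0 at all 3 stages, and Bmp4 goes from -1.04 at day 7 to 1.93 at day 14.

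Against healthy brain, Tgfb1, Tgfb3, Tgfbr1, Tgfbr2 and Tgfbi passed as higher in the day 7 tumours of both hosts, though the calls for Tgfb3, for Tgfb1 in Pfp/Rag2 -/- hosts and for Tgfbr1 rested on single arrays or on the choice of probe. Of 9 members, 6 were higher and 2 lower in WT hosts, where 57.9% of all genes changed (28.2% higher, 29.7% lower), and 5 were higher and 1 lower in Pfp/Rag2 -/- hosts, where 54% did (27.2% higher, 26.8% lower). Tgfbi was 10.8-fold higher in WT hosts (3.44, SE 0.42, adjusted p = 1.9e-05) and 4.84-fold in Pfp/Rag2 -/- hosts (2.28, SE 0.42, adjusted p = 6e-04). Tgfbr2 was 2.78-fold and 3.35-fold higher (adjusted p = 4.4e-06 and 1e-06), and Tgfbr1 1.96-fold and 2.18-fold (adjusted p = 2.7e-05 and 8e-06). Those values are of the brightest probes. Over the mean of all 4 probes Tgfbr1 was 0.38 and 0.37 higher on the log2 scale and was no longer called (adjusted p = 0.052 and 0.058). That mean takes in Tgfbr1 probes detected on 0 and on 3 of the 18 arrays. The second Tgfbr2 probe, detected on 13 arrays, gave 0.85 and 0.86 (adjusted p = 0.0033 and 0.0032). Tgfb1 was at least 1.70-fold and at least 1.21-fold higher (adjusted p = 0.0015 and 0.027), since brain did not detect it. The call in Pfp/Rag2 -/- hosts was lost without their second pool (measured 0.52, adjusted p = 0.22) or the second brain array (0.59, adjusted p = 0.18). Tgfb3 lost its call in WT hosts without their second pool (0.33, adjusted p = 0.23) or the first brain array (0.28, adjusted p = 0.28), and in Pfp/Rag2 -/- hosts without their first pool (0.55, adjusted p = 0.051) or that brain array (0.46, adjusted p = 0.099). Bmp4 was lower in WT tumours (-1.56, SE 0.27, adjusted p = 0.00034), and Inhba was lower in Pfp/Rag2 -/- tumours (-1.44, SE 0.25, adjusted p = 0.00034). With the authors' processed values neither passed (-0.26 and -0.09, adjusted p = 0.37 and 0.61). Over all genes, however, those values had medians of 0.83 in WT and 0.94 in Pfp/Rag2 -/- tumours, against -0.07 and -0.02 in the main fit. Both genes lay below these medians. Tgfb2 was lower in WT tumours (-0.76, SE 0.29, adjusted p = 0.040), a call lost without any single array of either group (-0.71 to -0.82). The processed values gave 0.37 (adjusted p = 0.22), of the opposite sign but also below their median. Ltbp1 was at least 1.51-fold higher in WT tumours (adjusted p = 0.017). That call was lost without the first WT pool (measured 0.78) or the first brain array (0.85). It was also lost over the mean of all 7 probes (0.17, adjusted p = 0.14).

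Against cultured GL261 cells, symptomatic tumours were higher in Tgfbi and lower in Tgfb2. The tumour pools also held host cells, whose part was not tested. Their macrophage and monocyte sums were 1909 to 8090, against 145 to 163 in cultured cells. Of 9 members 6 were higher and 1 lower in each host, counting Bmp4 in WT tumours, which neither group detected, where 33.7% of all genes changed in WT hosts (17.3% higher, 16.5% lower) and 35.8% in Pfp/Rag2 -/- hosts (18.5% higher, 17.2% lower). Tgfbi was 23.3-fold higher in WT tumours (4.54, SE 0.39, adjusted p = 9.3e-07) and 7.49-fold in Pfp/Rag2 -/- tumours (2.91, SE 0.39, adjusted p = 6.9e-05). Tgfb2 was at least 4.42-fold lower in WT tumours (measured -2.61, SE 0.27, adjusted p = 5.8e-06) and lower by 2.04 in Pfp/Rag2 -/- tumours (SE 0.27, adjusted p = 6e-05). Tgfbr2 was 2.25-fold and 2.81-fold higher and Tgfbr1 1.64-fold in both hosts, with adjusted p of at most 0.00032, by the brightest probes. Over the mean of all 4 probes Tgfbr1 was 0.23 and 0.25 higher on the log2 scale (adjusted p = 0.24 and 0.19) and Tgfbr2 in WT tumours 0.21 (adjusted p = 0.056), none of them called. The second Tgfbr2 probe gave -0.09 and 0.31 (adjusted p = 0.74 and 0.22). Tgfb1 was at least 1.61-fold and at least 1.24-fold higher, since cultured cells did not detect it; the call in Pfp/Rag2 -/- tumours was lost without the first array of cells (measured 0.72, adjusted p = 0.076). Tgfb3 was 1.57-fold higher in Pfp/Rag2 -/- tumours (0.65, SE 0.16, adjusted p = 0.0069; 0.051 without that array) and was 0.16 higher without passing in WT tumours (SE 0.16, adjusted p = 0.49). Ltbp1 passed in both hosts with cultured cells at background and no fold is given; over the mean of its probes it did not pass (adjusted p = 0.48 and 0.16). Bmp4 passed in WT tumours (5.72 against 4.50, adjusted p = 0.0020) with no array of either group detecting it, so that call is of 2 signals below background. The cells themselves, set against brain, were higher in Tgfb2 (2.48-fold, adjusted p = 0.0011), Tgfb3 (1.79-fold, adjusted p = 0.00069), Tgfbr2 (1.55-fold, adjusted p = 0.0020) and Tgfbr1 (1.23-fold, adjusted p = 0.044). They were at least 2.95-fold lower in Inhba (adjusted p = 1.6e-06) and at least 3.78-fold lower in Bmp4 (adjusted p = 6.2e-08). These are 4 higher and 2 lower of 9, where 76.3% of all genes changed (42.2% higher, 34.1% lower) with a median of 0.19 over all genes tested. After cyclic loess normalization Tgfbr2 was 0.07 (adjusted p = 0.70) and Tgfbr1 -0.30 (adjusted p = 0.038), the opposite direction. Over all genes the median was then -0.11, and it was -0.6 with the authors' processed values. With the processed values Tgfbr2, Tgfb2 and Tgfbr1 did not pass (0.41, 0.51 and 0.12, adjusted p = 0.054, 0.066 and 0.44), and Tgfbr1 also lost its call without the second brain array or either array of cells (adjusted p = 0.085 to 0.27).

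**Figure D4:**
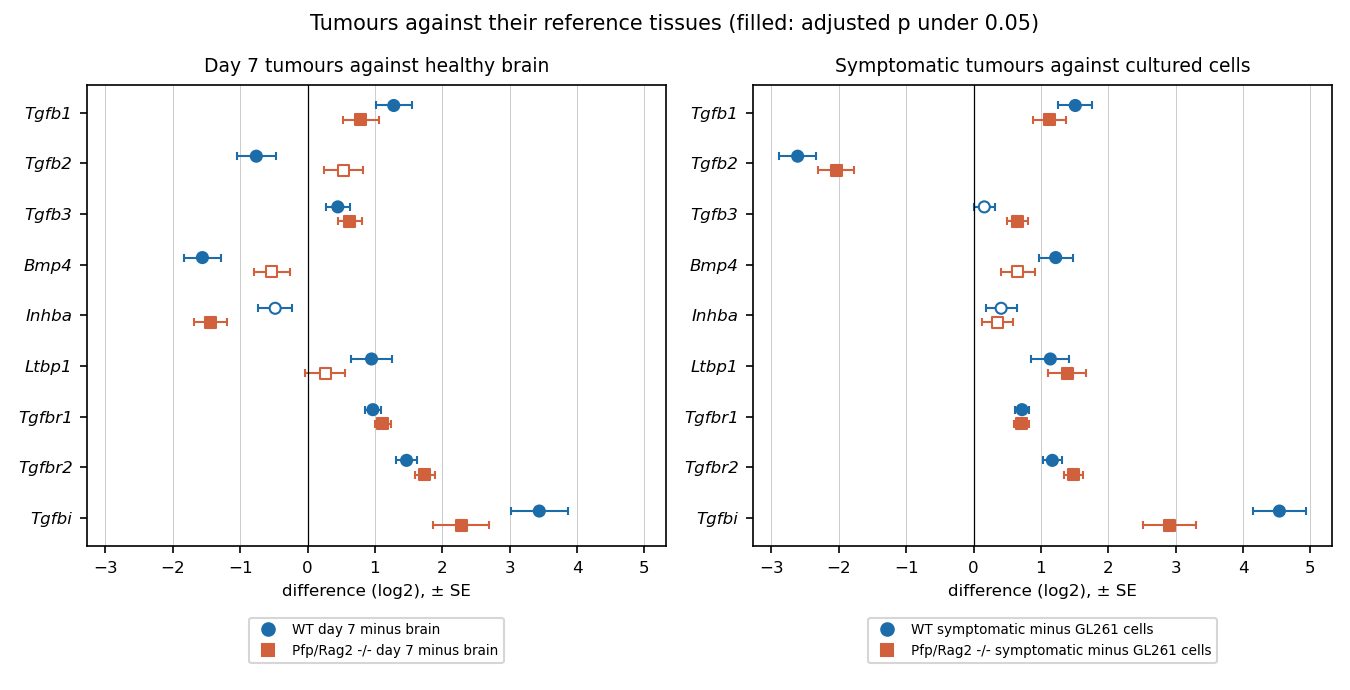
Log2 difference with its standard error from limma for each gene, in day 7 tumours against healthy brain (left) and in symptomatic tumours against cultured GL261 cells (right), for WT (circles) and Pfp/Rag2 -/- hosts (squares); filled symbols have an adjusted p under 0.05. Tgfbi shows the widest rise on both sides (3.44 and 4.54 in WT hosts), and Tgfb2 the widest fall against cultured cells.

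Other genes of the pathway were counted on 6 lists holding 80 genes, of which 49 were tested. Between hosts 2 were higher and 1 lower in WT tumours on day 7, with 5 and 5 on day 14, and with 5 and 10 in symptomatic mice, where 3.35%, 13.6% and 17.1% of all genes were called. Among genes of latency and activation, Nrros, which anchors latent TGF-beta on myeloid cells, was higher in WT hosts at all 3 stages (1.03, 1.46 and 1.28, adjusted p = 0.0070, 0.00014 and 6.3e-05). Itgav, an integrin chain that activates latent TGF-beta, was higher at day 14 and the symptomatic stage (0.92 and 0.75, adjusted p = 0.019 and 0.016), and Ltbp4 was lower (-1.17 and -1.11, adjusted p = 0.014 and 0.0045). Among known targets, the fibronectin gene Fn1 (1.68 and 1.67, adjusted p = 0.012 and 0.0029) and the smooth muscle actin gene Acta2 (0.86 and 1.31, adjusted p = 0.020 and 0.00026) were higher at those stages, whereas Col1a1, a collagen chain, was lower (-1.17 and -1.31, adjusted p = 0.0036 and 0.00031). Of the Smads and their regulators, Tgif1, a co-repressor of Smad complexes, was higher in WT hosts at day 7 and the symptomatic stage (0.70 and 0.44, adjusted p = 0.046 and 0.048), the latter with groups that overlapped. Smad1 was lower at day 14 and the symptomatic stage (-0.58 and -0.43, adjusted p = 0.012 and 0.017) and Skil, a repressor of Smad signalling, at the symptomatic stage (-0.53, adjusted p = 0.0040). Among antagonists, Sostdc1, a bone morphogenetic protein antagonist that is also on the choroid plexus list, was at least 9.40-fold lower in WT hosts at day 7 (adjusted p = 0.0014), and Dcn was lower at the symptomatic stage (-1.20, adjusted p = 0.032). Dcn and Col1a1 are also on the meningeal fibroblast list. Its summed signal in symptomatic mice was 53.1% to 63.2% of brain in WT and 81.6% to 90.4% in Pfp/Rag2 -/- hosts. The part of this tissue was not tested. The activin receptor gene Acvr2b was lower at day 14 (-0.63, adjusted p = 0.0016), as were Acvr1b (at least 1.5-fold, adjusted p = 0.00092) and Acvr2a (at least 1.02-fold, adjusted p = 0.022) at the symptomatic stage, and Gdf15, a stress-induced ligand of the family, was lower at day 14 too (-1.27, adjusted p = 0.042). Over the 49 the median host difference was -0.01, 0.09 and -0.11 at the 3 stages, beside -0.02, -0.06 and -0.03 over all genes. Against cultured cells, 11 were higher and 10 lower in WT symptomatic tumours and 16 and 8 in Pfp/Rag2 -/- tumours, where 33.7% and 35.8% of all genes were called, with the target Id2 lower in both (-2.52 and -2.21, adjusted p = 1.2e-06 and 5.3e-06).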

How the data were processed

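RNA from 18 samples was read on Illumina mouse WG-6 v2.0 arrays, per the labels' protocols. The authors deposited unnormalized probe intensity values, a gene table of group means and detection scores from GenomeStudio 1.9.0 with its normalization set to none, per the file headers, and processed probe values (intensity, scale and centring not given in the sources used here). Gene names were tied to probes by matching each gene's group values to the mean of its probes; 30639 of 30854 genes (99.3%) were linked, and none of 30854 decoys was. Names were updated through RefSeq (GRCm38.p6). Intensities were corrected and normalized with neqc (offset 16) in limma 3.58.1 (R 4.3.3). Probes detected on at least 2 arrays at a detection p under 0.01 were kept, the brightest probe stood for a gene, and 1 model with 8 groups was fitted to 14528 genes and tested on simulated data. Where a group was below background on every array, a least fold was taken against the lowest detectable signal. P-values were Benjamini-Hochberg adjusted within each of 14 comparisons. The number of arrays limits the precision. The host difference averaged over stages was added after the values were seen. Named genes were all members, up to 4 called genes per pathway list with groups that did not overlap, up to 2 examples elsewhere, and the 3 genes most correlated with each member, not all of which are reported here. The members and lists were chosen with earlier results of these data known. Alternatives were other normalizations, no background correction, no filter, the mean of all probes, fewer arrays, the authors' processed values, a block on the replicate number and leaving out each array. Titles and descriptions number replicates 2 and 3 of the symptomatic Pfp/Rag2 -/- group oppositely; titles were used.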

Additional observations from a re-analysis of the deposited data

Results flagged for a closer look

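The difference in Bmp4 between WT and Pfp/Rag2 -/- hosts differed between day 7 and day 14. It was -1.04 on the log2 scale at day 7 and 1.93 at day 14, a change of 2.97 (SE 0.39, limma adjusted p = 0.0043), with both arrays of each host on the same side at each stage. The day 14 pools from Pfp/Rag2 -/- hosts did not detect Bmp4, so the measured change carries no exact fold.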

How the results depend on the processing

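Tgfbi at the symptomatic stage kept its call under each alternative run outside the omission of single arrays (log2 1.59 to 1.76). Members called at day 7 (1 of 9) were 2 with cyclic loess, 3 without background correction, 0 with no filter on dim probes, 0 on the 14 tumour arrays alone and 0 on the groups compared. At day 14 (2) they were 4 with cyclic loess, 4 without background correction and 0 on the groups compared. At the symptomatic stage (2) there was 1 on the groups compared, on the tumour arrays and with the authors' processed values (8 members measured). The change of the host difference from day 7 to 14 (1) had 0 on the groups compared, as had WT day 7 to 14 (1), WT day 14 to symptomatic (3) and Pfp/Rag2 -/- day 7 to 14 (3). WT day 7 to 14 had 2 without background correction and 2 with the processed values; WT day 14 to symptomatic had 1 on the tumour arrays. With the processed values Pfp/Rag2 -/- day 14 to symptomatic had 1 (main 0) and cells against brain 3 (main 6), and with the mean of all probes WT symptomatic against cells had 4 (main 7). Tgfbr1 in cells against brain reversed to -0.30 with cyclic loess. In WT day 7 tumours against brain Tgfb2 and Inhba reversed to 0.37 and 0.50 with the processed values, whose median there was 0.83 over all genes. The cause was not tested.

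Deviations of same-numbered arrays correlated at over 0.1 in 22 of 57 pairs (r -0.251 to 0.722). Where both groups hold 2 arrays, numbers 1 and 2 give the same r, so the 57 pairs are not all separate. The day 14 hosts gave 0.722 with each other, and 0.446 and 0.433 with the day 7 Pfp/Rag2 -/- pools. Not every pair exceeded 0.1, and the labels tie the numbers to nothing shared, so the numbers were not taken to pair samples. With a replicate block on title numbers, 2 members were called at day 7 (Tgfb2, and Tgfbi at 1.16, adjusted p = 0.029), 2 from WT day 7 to 14 and 1 from WT day 14 on; with the numbers of the descriptions 3 at day 7 and 2 from WT day 7 to 14. Leaving out single arrays gave 0 to 3 called members at day 7, 1 to 2 at day 14, 1 to 3 at the symptomatic stage, 1 to 3 for the host change from day 7 to 14 and 0 to 1 from day 14 on. It gave 0 to 1 and 0 to 2 for the WT stages, 1 to 3 and 0 for the Pfp/Rag2 -/- stages, 5 to 7 and 5 to 6 against brain (WT, Pfp/Rag2 -/-), 7 and 5 to 8 against cells, and 5 to 6 for cells against brain. Where this leaves 1 array in a group, its spread is assumed to match the others.

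Over all genes, cyclic loess moved the split of higher to lower calls from 1026 and 956 to 1320 and 585 at day 14, from 1438 and 1450 to 694 and 1823 in WT hosts after day 14, from 2803 and 2434 to 1507 and 3249 in Pfp/Rag2 -/- hosts from day 7 to 14, and from 6131 and 4949 to 4616 and 5922 in cells against brain. With the authors' processed values the split was one-sided in most comparisons: 1310 and 360 at the symptomatic stage, 124 and 1451 and then 96 and 2848 for the WT stages, 673 and 3555 and then 3 and 2546 for the Pfp/Rag2 -/- stages, 4632 and 238 and then 4930 and 272 against brain, 5366 and 297 and then 4340 and 396 against cells, and 2864 and 4214 for cells against brain. On the groups compared, 66 genes were called at day 7 (main 486), 185 at day 14 (1982), 1 in WT hosts after day 14 (2888) and 1 in Pfp/Rag2 -/- hosts from day 7 to 14 (5237). On the tumour arrays alone 284 were called at day 7, 41 for the host change from day 7 to 14 (main 352; 209 with no filter, 167 with the processed values), 556 for WT day 7 to 14 (main 1269) and 1701 in WT hosts after day 14. Ltbp1, late Bmp4 and, on some arrays, Inhba, Tgfb1 and Tgfb2 lie near background, which limits their precision.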
